A study of Mus musculus with 30 samples.

Results

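The CREB family and its coactivators were followed through 18 RNA-seq libraries and 12 ATAC-seq libraries of mouse CD4 T cells. The set was chosen by symbol and holds 9 genes of the 25865 symbols in the table of naive and activated cells and of the 25860 in the forskolin table. They are the bZIP factors Creb1, Crem, Atf1 and Atf2, the CREB-regulated transcription coactivators Crtc1, Crtc2 and Crtc3, and the acetyltransferases Crebbp (CBP) and Ep300 (p300). Open chromatin was read at the 17 sites, of 110808 in all, that lie within 10000 bases of the gene spans of Crem (6 sites) and Creb1 (11 sites). All 9 genes were in both RNA tables and all 9 passed the filter on low counts, so that each was tested in every comparison.

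CREB1, CREM and ATF1 are related leucine-zipper proteins that bind the cyclic AMP response element as dimers. The cyclic AMP-dependent kinase PKA phosphorylates them in the nucleus, which lets the acetyltransferases CBP and p300 dock, while salt-inducible kinases hold the CRTC coactivators in the cytoplasm until cyclic AMP or calcium signals release them. Crem is itself a classic target of CREB, since an internal promoter gives the short repressor ICER, and in T cells CREM and ICER are known as regulators of cytokine genes such as Il2. Counts per gene do not separate ICER from full-length Crem.

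All cells were CD4 T cells, taken from lymph nodes and spleen, and came from control animals (WT) or from animals labelled PKAKO (KO). Naive cells were isolated with a CD4 kit and sorted, and were profiled as such, after 3 days of stimulation through CD3 and CD28 (activated), or after 3 days of rest with IL7 followed by 4 hours of forskolin at 1 ug/mL. Forskolin is a plant diterpene that stimulates adenylyl cyclase, the enzyme that makes cyclic AMP. The labels give neither the gene removed, the Cre driver nor the age of the animals, and no library of rested cells without forskolin is among the samples, so no effect of forskolin itself was tested. RNA-seq covered naive, activated and forskolin-treated cells and ATAC-seq naive and activated cells, with 3 libraries for each genotype. The labels do not say whether libraries came from separate animals, so that p-values measure the spread between these samples, which may be technical.

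RNA libraries held 7665955 to 11950488 counts in named genes and ATAC libraries 18522373 to 25318916 counts in sites. Prkaca, the catalytic subunit alpha of PKA, stood at 32.1 to 53.2 CPM (read counts relative to the TMM-scaled library size) over the 9 WT libraries and at 0.866 to 3.87 CPM over the 9 KO libraries, without overlap in any condition. Markers of T cells were present in every library. Their summed level was 6588 to 7683 CPM in naive WT and 6219 to 7238 in naive KO. In activated cells it was 3427 to 3583 CPM in WT and 3057 to 3178 in KO. After forskolin it was 4310 to 4480 CPM in WT and 3602 to 3793 CPM in KO. The summed B cell markers were 322 to 333 CPM in naive WT and 317 to 331 in naive KO. They were higher in KO in activated cells (161 to 189 CPM, against 103 to 127 in WT) and after forskolin (323 to 335 CPM, against 170 to 192). Nearly all of that sum was Ighm, at 323 ± 5.66 CPM in forskolin KO and 181 ± 11.2 in forskolin WT (SD, n = 3). Myeloid markers summed to at most 12.3 CPM, and markers of NK and CD8 T cells to at most 45.9 CPM. Erythroid markers summed to 1.73 to 7.17 CPM in naive WT and 7.03 to 15.3 CPM in naive KO, and to at most 1.57 CPM elsewhere. In bulk samples, fewer cells of a kind and less RNA per cell cannot be told apart.

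Sequences at the gene starts are given for the members whose start windows the chromatin and RNA results touch. The RefSeq table (GRCm38.p6), with windows from 250 bases before to 50 bases after a gene start, held 7 of the 9 members, and Crem and Crtc2 were not among them. The motifs searched on both strands were the cyclic AMP response element TGACGTCA, its short form TGACG, which also lies inside the full element, and the GC box GGGCGG. None of the 7 windows held the full element, which 1.79% of the 32851 windows in the table held. The short form was in 1 of 7, that of Atf1, and in 20.8% of all windows. A GC box was in 6 of 7 and in 35.7% of all windows. The 7 windows were 66% to 82% G and C, and the base composition of all windows was not compared. A match is a description of letters and no evidence of binding. In the windows of Creb1, chr1:64532554-64532853 on the plus strand, Atf1, chr15:100227609-100227908 on the plus strand, and Crtc3, chr7:80688828-80689127 on the minus strand, written 5′ to 3′, capitals mark these motifs.
Creb1: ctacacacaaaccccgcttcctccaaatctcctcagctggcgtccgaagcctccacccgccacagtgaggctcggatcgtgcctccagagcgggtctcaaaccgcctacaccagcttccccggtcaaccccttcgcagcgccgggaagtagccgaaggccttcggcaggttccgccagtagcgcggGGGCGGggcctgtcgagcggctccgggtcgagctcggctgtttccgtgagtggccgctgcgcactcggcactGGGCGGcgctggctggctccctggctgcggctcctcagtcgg
Atf1: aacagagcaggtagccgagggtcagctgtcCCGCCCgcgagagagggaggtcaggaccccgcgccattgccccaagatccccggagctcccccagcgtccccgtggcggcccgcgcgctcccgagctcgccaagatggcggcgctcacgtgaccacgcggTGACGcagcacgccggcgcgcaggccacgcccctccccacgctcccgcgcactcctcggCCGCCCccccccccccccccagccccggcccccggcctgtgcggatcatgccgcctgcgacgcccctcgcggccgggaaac
Crtc3: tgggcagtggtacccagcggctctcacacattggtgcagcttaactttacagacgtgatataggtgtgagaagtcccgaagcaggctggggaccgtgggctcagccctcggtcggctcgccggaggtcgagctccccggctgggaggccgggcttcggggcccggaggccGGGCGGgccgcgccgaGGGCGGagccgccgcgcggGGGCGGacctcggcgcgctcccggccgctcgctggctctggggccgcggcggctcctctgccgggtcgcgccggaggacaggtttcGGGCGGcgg
The short element of Atf1 began 90 bases before its start. The windows of Creb1 and Atf1 are shown because an ATAC site overlapped each of them and differed by genotype in activated cells, and that of Crtc3 because its RNA, like that of Creb1, was higher in KO than in WT after forskolin.

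Crem had the widest range of the 9 genes. Its level was 10.8, 17.7 and 19.2 CPM in the 3 naive WT libraries and 7.96, 8.09 and 6.68 CPM in the naive KO libraries. After activation it was 65.1, 56.6 and 55.3 CPM in WT and 9.37, 7.46 and 7.50 CPM in KO. After forskolin, in a table scaled separately, it was 225, 264 and 229 CPM in WT and 12.5, 12.5 and 13.7 CPM in KO. Every WT library therefore lay above every KO library of the same condition. Over the 9 KO libraries Crem spanned only 6.68 to 13.7 CPM, and over the 9 WT libraries 10.8 to 264 CPM.

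The genotype difference of Crem after forskolin was a log2 fold change (KO over WT) of -4.21 ± 0.07 (SE, edgeR quasi-likelihood test, Benjamini-Hochberg adjusted p = 2.9e-21), which is 18.5-fold lower. It ranked 11 from the most negative among the 11658 genes tested there. The difference was -1.07 ± 0.19 in naive cells and -2.86 ± 0.17 in activated cells (edgeR adjusted p = 0.0179 and 3.66e-09). The naive call did not hold when WT replicate 2 or 3, or any 1 of the 3 KO libraries, was left out, where the value was -0.94 to -1.12 with adjusted p from 0.0664 to 0.170. It was also lost in a fit of the naive groups alone (edgeR adjusted p = 0.0652) and with limma-voom (0.0989).

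In a joint fit of all 18 libraries the difference was larger after forskolin than in naive cells, by -3.12 ± 0.24 log2, and larger than in activated cells, by -1.32 ± 0.21 (edgeR adjusted p = 1.2e-08 and 0.000128). Each difference was taken within its own table, and both share the forskolin libraries. Against Creb1, the counts of Crem came to 6.21%, 9.71% and 11.5% in naive WT, 47.2% to 58.9% in activated WT and 140% to 165% in forskolin WT. In KO this share was 4.06% to 4.89%, 6.71% to 8.59% and 6.22% to 6.89%. The share compares libraries and not the 2 genes, whose transcript lengths were not used. It also moves with Creb1, which was lower in activated than in naive cells of both genotypes and higher in KO after forskolin.

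**Figure D1:**
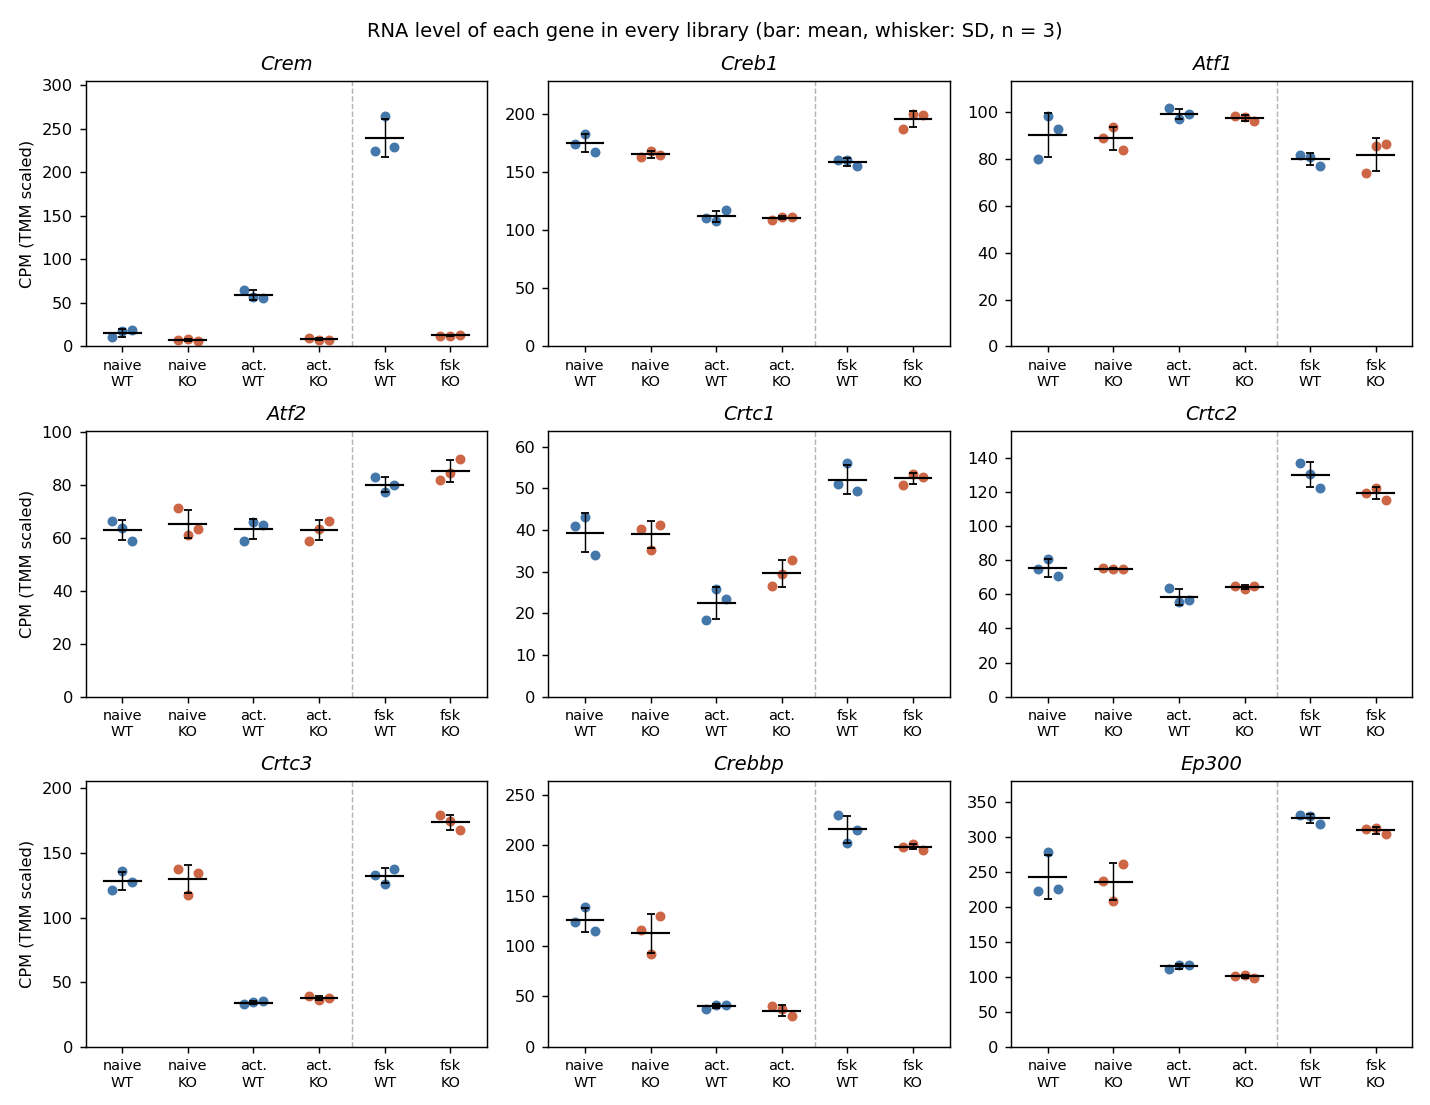
RNA level in CPM (vertical axes, each from 0) of the 9 genes in every library of 6 groups, naive, activated (act.) and forskolin (fsk), WT in blue and KO in orange; bars are means, whiskers SD, n = 3, and the dashed line parts the separately scaled tables. Crem reaches 225 to 264 CPM in forskolin WT and at most 13.7 CPM in the KO libraries, while Atf1 and Atf2 overlap between genotypes in each condition.

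By the likeness of their profile over the 12 naive and activated libraries (Pearson correlation of log2 CPM, among 9903 genes without Gm or Rik names), the genes nearest to Crem were C1ql3 (0.960), Cbarp (0.954), Itgav, Asph and Atl3 (0.948 each). These points share their libraries, and the values are a description. C1ql3, a secreted C1q-like protein, averaged 6.62 CPM in activated WT and at most 0.340 CPM in the other naive and activated groups. Cbarp, a regulator of voltage-gated calcium channels, averaged 54.0 CPM in activated WT and 28.4 to 32.9 CPM in the others. After forskolin, which the likeness did not use, Cbarp averaged 109 CPM in WT and 42.6 in KO, a log2 fold change of -1.35 ± 0.06 (edgeR adjusted p = 6.85e-18). Itgav, the integrin alpha V subunit, had -0.08, Asph -0.33 and Atl3 0.09 (edgeR adjusted p = 0.374, 0.283 and 0.0949), and C1ql3 was too low to be tested.

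Creb1, the constitutively expressed founder of the family, went the other way from Crem after forskolin. It stood at 160.2, 160.5 and 155 CPM in the WT libraries and 187, 200.2 and 199 CPM in the KO libraries, without overlap. The log2 fold change was 0.30 ± 0.04 (edgeR adjusted p = 1.27e-07). In naive cells its means were 175 ± 7.63 CPM in WT and 165 ± 2.89 in KO, and in activated cells 112 ± 4.96 and 111 ± 1.28 (SD, n = 3). Those differences were -0.08 ± 0.06 and -0.02 ± 0.06 (edgeR adjusted p = 1 and 0.899). The genotype difference after forskolin differed from that in naive cells by 0.41 ± 0.08 and from that in activated cells by 0.35 ± 0.08 (edgeR adjusted p = 0.000717 and 0.00248).

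Atf1 and Atf2 were the flattest members. Atf1, which dimerises with CREB1, ranged from 73.8 to 101.5 CPM over all 18 libraries, and Atf2, which pairs with JUN and is a target of stress kinases, from 58.9 to 89.8 CPM. Neither was called between genotypes in any condition, with log2 fold changes between -0.03 and 0.09 (edgeR adjusted p from 0.204 to 1).

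Counted together, 1 of the 9 genes, Crem, differed between genotypes in naive cells, where 0.242% of all tested genes did. In activated cells 2 of 9 differed (Crem lower and Crtc1 higher in KO), against 14.9% of all genes. After forskolin 5 of 9 differed (Crem, Crtc2 and Crebbp lower, Creb1 and Crtc3 higher in KO), against 38.5% of all genes. The median log2 fold change over the 9 genes was -0.03, -0.02 and 0.01 in these comparisons, beside -0.01, 0.01 and 0.00 over all genes. The genotype difference itself changed between naive and activated cells in 1 of 9 genes, Crem (3.7% of all genes), and between naive and forskolin-treated cells in 3 of 9, Crem, Creb1 and Crtc3 (10.9% of all genes). The same 3 genes were called for forskolin against activated cells (18.1% of all genes).

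**Figure D2:**
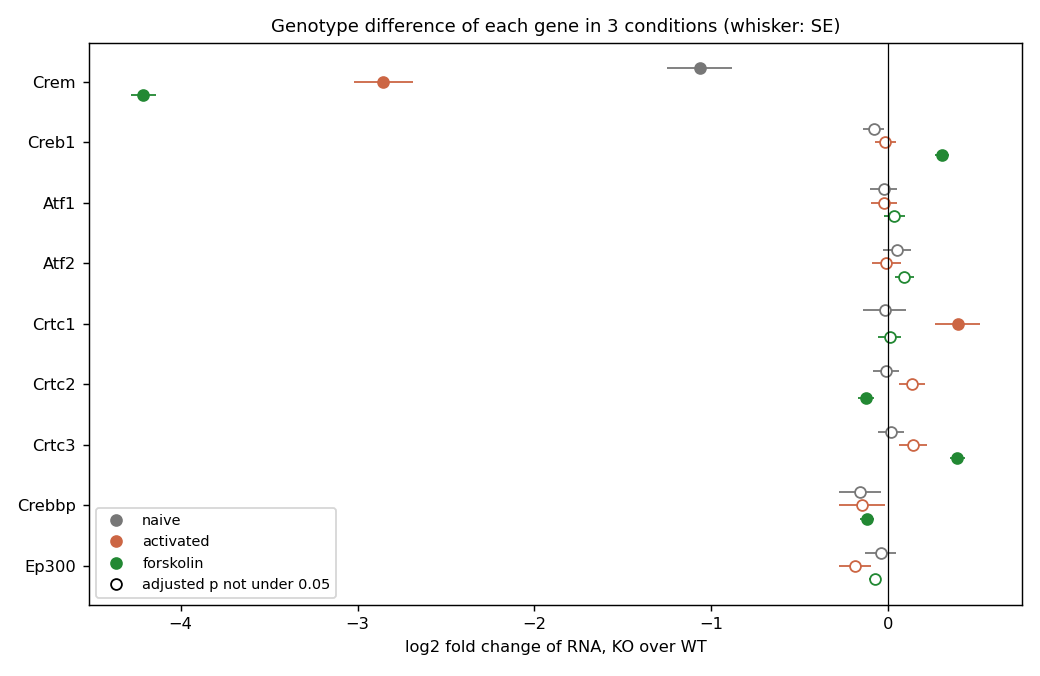
Log2 fold change of RNA, KO over WT, on the horizontal axis for each of the 9 genes in naive (grey), activated (orange) and forskolin-treated cells (green); whiskers are SE, and open symbols mark an edgeR adjusted p of 0.05 or more. Crem lies at -1.07, -2.86 and -4.21, and the other genes between -0.19 and 0.39.

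Of the CRTC coactivators, Crtc3 and Crtc2 were called after forskolin and Crtc1 in activated cells. Crtc3 stood at 133, 126 and 138 CPM in forskolin WT and 179, 174 and 167 CPM in forskolin KO, without overlap. Its log2 fold change there was 0.39 ± 0.04 (edgeR adjusted p = 4.55e-09). In naive cells the means were 128 ± 7.11 CPM in WT and 129.9 ± 10.6 in KO, and the difference after forskolin exceeded the naive one by 0.40 ± 0.09 (edgeR adjusted p = 0.00404). It exceeded the activated one by 0.28 ± 0.10 (adjusted p = 0.0482). That last call was lost when any activated or forskolin library but activated WT replicate 1 or forskolin WT replicate 3 was left out, with adjusted p up to 0.12. It was also lost under RLE and upper-quartile scaling, DESeq2, limma-voom, no filter and the replicate block (0.0536 to 0.163). Naive libraries were not left out for this comparison.

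Crtc1 stood at 18.4, 25.8 and 23.4 CPM in activated WT and 26.5, 29.4 and 32.9 CPM in activated KO. The groups did not overlap, and the log2 fold change was 0.39 ± 0.13 (edgeR adjusted p = 0.0463). Leaving out WT replicate 1 or 3, or KO replicate 2 or 3, ended the call (0.26 to 0.42, adjusted p from 0.0834 to 0.202), and with limma-voom or a fit of the activated groups alone (0.0524 and 0.0509). In naive and forskolin-treated cells its differences were -0.02 and 0.01.

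Crtc2 stood at 137, 131 and 122.6 CPM in forskolin WT and 119.7, 122.5 and 116 CPM in forskolin KO. The lowest WT library lay only just above the highest KO library, and the log2 fold change was -0.12 ± 0.05 (edgeR adjusted p = 0.0314). The call was lost without WT replicate 1 or 2 or KO replicate 3 (adjusted p from 0.0777 to 0.162), and with upper-quartile scaling, DESeq2 and limma-voom (0.0508, 0.102 and 0.0556).

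The acetyltransferases differed little by genotype. Crebbp stood at 230, 203 and 215 CPM in forskolin WT and at 199, 201 and 196 CPM in forskolin KO, a log2 fold change of -0.12 ± 0.04 (edgeR adjusted p = 0.0147). Without forskolin WT replicate 1 or KO replicate 3 it was -0.08 and -0.11 (adjusted p = 0.118 and 0.0597), and DESeq2 gave an adjusted p of 0.0524. Ep300 stood at 332, 330.4 and 319 CPM in forskolin WT and 312, 314 and 304 CPM in KO, at -0.08 ± 0.03 (edgeR adjusted p = 0.0649, and 0.0254 without WT replicate 3). In activated cells Ep300 was 111, 117 and 117 CPM in WT and 102, 103 and 98.1 CPM in KO, at -0.19 ± 0.09 (edgeR adjusted p = 0.185). Same-numbered activated libraries deviated together, and in a fit of the activated groups with the replicate number as a block Ep300 passed (-0.19, edgeR adjusted p = 0.00391), as it did without the block in that fit (0.0143).

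Beside these forskolin results, 9 of 11 T cell identity genes were called lower in KO and 1 higher (38.5% of all genes were called), and Ighm was 0.84 ± 0.04 higher (edgeR adjusted p = 7.88e-17). Their part in the differences of Creb1, Crtc2, Crtc3 and Crebbp was not tested. The same holds for Crtc1 in activated cells, where 3 of 11 T cell genes were lower (14.9% of all genes were called) and Ighm was 0.60 ± 0.08 higher in KO (adjusted p = 2.48e-05). There the B cell marker Cd79b was higher in KO too (1.16 ± 0.32, edgeR adjusted p = 0.0206), and Cd79a was not called (1.36 ± 0.58, edgeR adjusted p = 0.135).

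Most tested genes differed between activated and naive cells, and the members were not called at a higher share than all genes in either genotype. In WT, 6 of the 9 genes were lower and 1, Crem, higher in activated than in naive cells, where 40.3% of all genes were lower and 42.3% higher. Crtc3 fell by 1.91 on the log2 scale, from 122, 136 and 128 CPM to 32.8, 34.4 and 35.4 CPM. Crebbp fell by 1.65, from 124, 139 and 115 CPM to 37.7, 41.2 and 41.1 CPM, and Ep300 fell by 1.08, from 224, 279 and 227 CPM to 111, 117 and 117 CPM. Every activated library lay below every naive library for each of the 6 lower genes. How many of all genes separated in this way was not counted. Crtc1 fell by 0.81, Creb1 fell by 0.65 and Crtc2 fell by 0.37 (edgeR adjusted p at most 0.000166 for all 6).

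The same 6 genes were lower in activated KO cells, where 39.8% of all genes were, with log2 fold changes of -1.79 ± 0.08 for Crtc3, -1.64 ± 0.13 for Crebbp and -1.23 ± 0.09 for Ep300. Creb1 had -0.58 ± 0.06, Crtc1 -0.40 ± 0.12 and Crtc2 -0.22 ± 0.07 (edgeR adjusted p at most 0.00903 for all 6). Crem had 0.10 ± 0.19 in KO (edgeR adjusted p = 0.629), against 1.89 ± 0.16 in WT. For Crtc1 the activation difference was 0.41 ± 0.18 less negative in KO than in WT, which did not pass the test of the difference (edgeR adjusted p = 0.261). Atf1 and Atf2 had 0.13 and 0.01 in WT and 0.14 and -0.05 in KO, and were not called. Without naive WT replicate 2, Atf1 passed in WT (0.21, edgeR adjusted p = 0.0189).

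**Figure D3:**
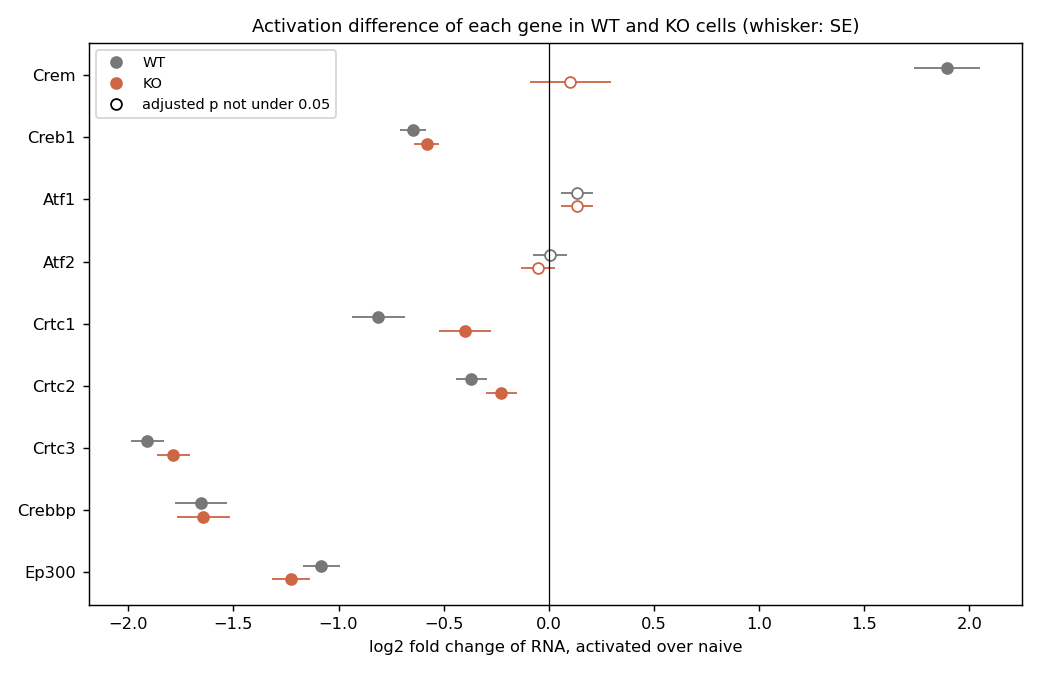
Log2 fold change of RNA, activated over naive, on the horizontal axis for each of the 9 genes in WT (grey) and KO (orange); whiskers are SE, and open symbols mark an edgeR adjusted p of 0.05 or more. Crtc3, Crebbp and Ep300 lie between -1.08 and -1.91 in both genotypes, and Crem at 1.89 in WT and 0.10 in KO.

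The chromatin of Crem was read at 6 sites in the window chr18:3256354-3347773 (mm10), named here by their distance from the upper end of the gene span, where the reverse-strand gene starts. The start site, 316 bases inside the span, carried 140.5, 138 and 152 CPM, here counts in sites, in naive WT and 147, 128 and 129 in naive KO. In activated cells it carried 67.3, 64.4 and 63.8 in WT and 62.4, 66.5 and 65.3 in KO. The genotypes overlapped in both states, and the log2 fold changes (KO over WT) were -0.09 ± 0.05 and -0.01 ± 0.06 (edgeR adjusted p = 0.588 and 0.912).

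Sites inside the gene did differ. The site 56686 bases in carried 62.1, 58.4 and 62.4 CPM in naive WT and 48.8, 50.6 and 49.1 in naive KO, and in activated cells 30.7, 28.3 and 26.2 in WT and 19.9, 19.7 and 20.5 in KO. All KO libraries lay below all WT libraries in each state, with log2 fold changes of -0.30 ± 0.06 and -0.51 ± 0.06 (edgeR adjusted p = 0.00905 and 2.98e-06). The site 66863 bases in carried 9.92, 12.7 and 12.3 in naive WT and 7.81, 7.34 and 6.83 in naive KO, at -0.67 ± 0.13 (edgeR adjusted p = 0.00807). In activated cells it carried at most 1.06 CPM in any library.

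A site 21113 bases in was near empty in naive cells, with 1 count in each WT library and 3, 0 and 2 counts in the KO libraries. After activation it held 62, 39 and 35 counts in WT and 13, 11 and 21 counts in KO. The genotype difference in activated cells was -1.46 ± 0.32 log2 (edgeR adjusted p = 0.00149), and this was the 1 site of the 17 below 0.05 in the authors' deposited table, at an FDR of 0.00847, where 5.16% of all sites were called. The site 8693 bases in carried 2.89, 2.85 and 3.83 CPM in activated WT and 1.85, 1.98 and 1.80 in activated KO, at -0.76 ± 0.21 (edgeR adjusted p = 0.00924). It was 0.58 ± 0.22 higher in activated than in naive WT cells and -0.05 ± 0.24 in KO (edgeR adjusted p = 0.0179 and 0.859), but the WT call was lost without naive replicate 1 or activated replicate 3 (adjusted p = 0.114 and 0.116). The site 44583 bases in held 3 or 4 counts per library in naive WT and 116 to 134 in activated WT, and its genotype difference in activated cells was -0.31 ± 0.14 (edgeR adjusted p = 0.121).

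In all, 2 of 6 Crem sites were lower in naive KO, where 0.608% of all sites were lower, and 3 of 6 in activated KO, where 17.6% were lower. None was higher. Over all sites naive calls split into 674 lower and 1058 higher, or 817 and 649 under RLE scaling. In activated cells all 6 log2 fold changes were below 0, with a median of -0.50 beside 0.02 over all sites. The test of the genotype difference between states called 0 of the 6 (edgeR; 5.6% of all sites were called, and 21190 sites had an unadjusted p below 0.05), with the widest value, -2.18 ± 1.16, at the site 21113 bases in (adjusted p = 0.322). In naive cells the authors' deposited table gave an FDR of 0.656 for both of the called sites, and called 0.0171% of all sites. The call of the site 66863 bases in was lost without naive WT replicate 2 or KO replicate 3 (adjusted p = 0.0697 and 0.0793), and that of the site 56686 bases in without WT replicate 1 or KO replicate 3 (0.0541 and 0.0589).

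**Figure D4:**
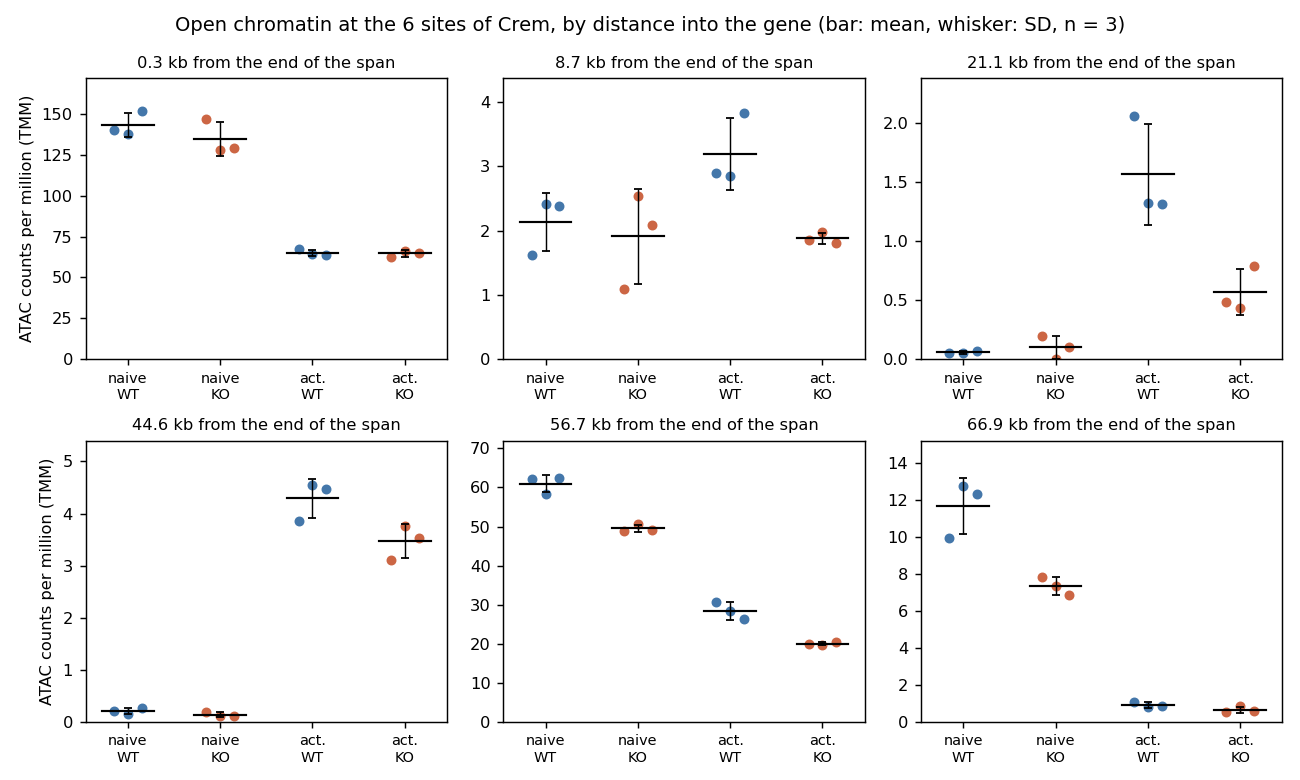
ATAC CPM (vertical axes, each from 0) at the 6 sites of Crem in every library, naive and activated (act.), WT in blue and KO in orange, panels ordered by distance from the upper end of the gene span; bars are means, whiskers SD, n = 3. At the start site the genotypes overlap, whereas 56686 bases in all KO libraries lie below all WT libraries in both states.

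Creb1 had 11 sites in the window chr1:64522794-64614548 (mm10), with distances counted from the start of the gene at 64532804. The start site, chr1:64532582-64532982, overlapped 272 bases of the window printed above. It carried 183, 168 and 190.2 CPM in naive WT, 191, 181 and 174 in naive KO, 87.5, 83.0 and 87.6 in activated WT and 93.3, 97.9 and 95.7 in activated KO. The naive groups overlapped and the activated groups did not. The log2 fold changes were 0.02 ± 0.05 and 0.15 ± 0.05 (edgeR adjusted p = 0.956 and 0.0272). The activated call was lost when any 1 of the 6 activated libraries was left out (0.12 to 0.16, adjusted p from 0.0568 to 0.180) and under RLE scaling (0.141).

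Of the 11 sites, 4 were higher in activated KO, where 10.9% of all sites were, and none was lower. They lay within 6134 bases before and 1210 bases after the start. The site 1210 bases after the start carried 15.3, 16.3 and 15.5 CPM in activated WT and 21.1, 21.9 and 21.0 in activated KO, at 0.44 ± 0.09 (edgeR adjusted p = 0.000568). The site 4967 bases before it carried 1.89, 1.73 and 1.80 in activated WT and 2.63, 3.32 and 3.04 in activated KO, at 0.72 ± 0.15 (edgeR adjusted p = 0.00092). The site 6134 bases before it held 8, 10 and 7 counts in activated WT and 15, 15 and 16 in activated KO, at 0.99 ± 0.32 (edgeR adjusted p = 0.0239). Leaving out WT replicate 1 or 3, or KO replicate 2 or 3, ended that call (adjusted p from 0.0557 to 0.0762). With the replicate number as a block in a fit of the activated groups, sites 13452 and 68746 bases after the start also passed (0.29 and -0.33, edgeR adjusted p = 0.0268 and 0.0095), as they did in that fit without the block (0.0399 and 0.0291). The site 13452 bases after the start passed in the main fit with the block as well (0.29, edgeR adjusted p = 0.0490).

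In naive cells 0 of the 11 Creb1 sites were called by edgeR (1.56% of all sites were called in either direction, and 12845 sites had an unadjusted p below 0.05), and the smallest adjusted p was that of the site 1210 bases after the start (0.44 ± 0.17, adjusted p = 0.302). The authors' deposited table called none of the 11 in either state. The genotype difference between states passed at none of the 11 in the edgeR fit. At the site 4967 bases before the start it was 0.56 ± 0.17 (adjusted p = 0.0588, and 0.0343 with the replicate block). Activation moved all 11 sites in both genotypes, with 6 lower and 5 higher in each, where 38.5% of all sites were lower and 51.4% higher in WT, and 38.8% and 49.7% in KO. With scaling to total counts the median over all sites moved from 0.54 to 1.09 in WT and from 0.44 to 1.04 in KO. The 99661 calls in WT then went from 42669 lower and 56992 higher to 32403 and 66663, those in KO from 43010 and 55081 to 31196 and 67194, and the site 11146 bases after the start was no longer called.

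**Figure D5:**
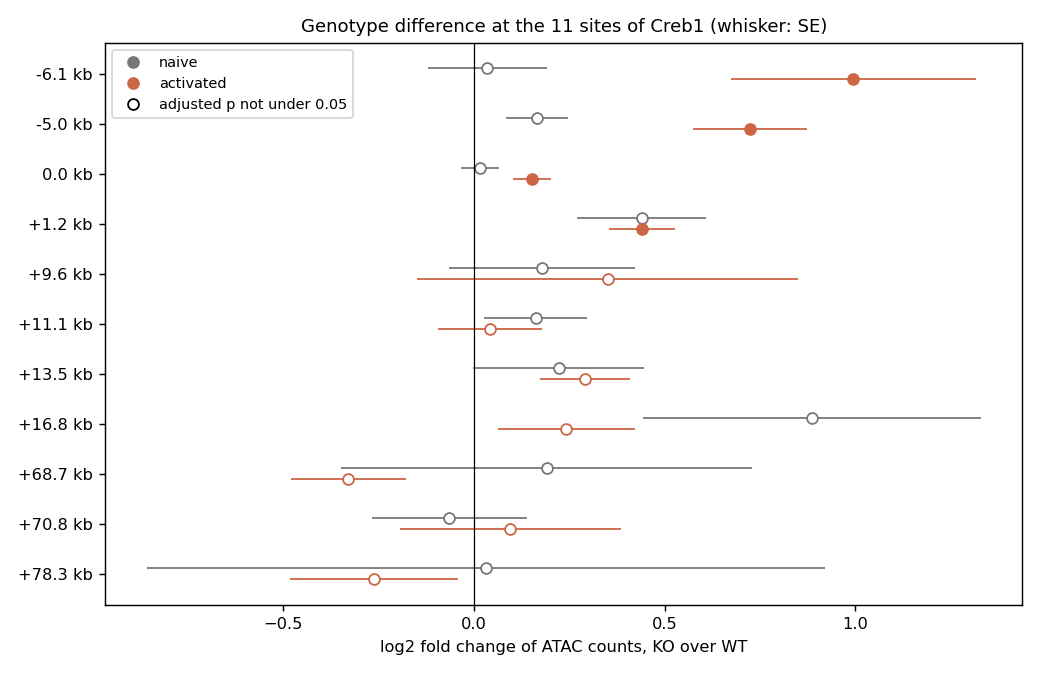
Log2 fold change of ATAC counts, KO over WT, on the horizontal axis at the 11 sites of Creb1 in naive (grey) and activated cells (orange), ordered by distance from the gene start in kb on the vertical axis; whiskers are SE, and open symbols mark an edgeR adjusted p of 0.05 or more. The 4 called sites, all activated and higher in KO, are the 4 nearest the start.

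At the starts of the other members in the promoter table, ATAC sites overlapped 5 of the remaining 6 windows, and none overlapped that of Crtc3. The site of Atf1, chr15:100227563-100227963, averaged 37.0 ± 2.36 and 40.1 ± 0.535 CPM in naive WT and KO and 21.8 ± 0.532 and 25.3 ± 1.47 in activated WT and KO (SD, n = 3). Its activated difference was 0.21 ± 0.06 (edgeR adjusted p = 0.0179), lost without WT replicate 2 or 3 or KO replicate 2 (adjusted p from 0.0743 to 0.168) and under RLE scaling (0.0642). The sites of Atf2, Crtc1, Crebbp and Ep300 had activated differences between -0.00 and 0.17 (edgeR adjusted p from 0.0665 to 0.986). That of Atf2, at 0.17 ± 0.07, passed with the replicate block (adjusted p = 0.0208), in the fit of the activated groups alone (0.000274) and under scaling to total counts (0.00519). Start sites of all 6 were lower in activated than in naive WT cells, where 38.5% of all sites were lower, with log2 fold changes of -0.68 to -1.35 (edgeR adjusted p at most 3.07e-07), and for the 5 besides Creb1 of -0.12 to -0.78 under scaling to total counts. Over the whole windows of these genes, 17.6% of all sites being lower and 10.9% higher in activated KO, the calls went both ways. At Atf1 2 of 6 sites were lower and 1, the start site, higher. At Crtc3 5 of 18 sites were lower and none higher, whereas its RNA in activated cells was 0.14 ± 0.08 (edgeR adjusted p = 0.279). At Crebbp 1 of 16 was lower and 3 higher, at Ep300 2 of 6 were higher, at Crtc1 1 of 8 was lower, at Crtc2 1 of 4 was higher, and at Atf2 none of 4 was called (edgeR). The authors' deposited table called 1 of the Crebbp sites and none at the other 6 genes.

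The partners of the family were read from lists chosen with earlier results of these data known. Of the other ATF and CREB bZIP genes, none of 12 tested differed in naive cells (edgeR). In activated KO 1 was lower and 1 higher, or 2 lower and 4 higher in the fit with the replicate block. The block also raised the activated calls over all genes, from 1789 to 2078, and to 3906 in a fit of the activated groups. After forskolin 3 of 10 were lower and 4 higher in KO. Over all genes, 0.242% were called in naive, 14.9% in activated and 38.5% in forskolin-treated cells, in either direction. Creb3l2, a membrane-anchored CREB relative, averaged 9.50 ± 2.14 CPM in activated WT and 3.98 ± 0.80 in KO (SD, n = 3), at -1.25 ± 0.19, and had -0.82 ± 0.13 after forskolin (edgeR adjusted p = 0.000153 and 4.33e-06). Crebl2 had 0.60 ± 0.15 in activated cells and 0.33 ± 0.05 after forskolin (edgeR adjusted p = 0.0116 and 1.36e-05), the former lost without KO replicate 1 (0.45, adjusted p = 0.101). Atf5 averaged 49.1 ± 3.75 CPM in forskolin WT and 98.7 ± 3.56 in KO, at 1.01 ± 0.06 (edgeR adjusted p = 1.12e-14), and Atf7 had 0.30 ± 0.08 (adjusted p = 0.00301). The list medians were 0.06, -0.12 and 0.08 in naive, activated and forskolin-treated cells, with medians over all genes of -0.01, 0.01 and 0.00, which also stand beside the medians that follow.

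Of 26 kinases and phosphatases that act on CREB or on CRTC proteins, 1 (Prkaca) was lower and none higher in naive KO, 4 were lower and 2 higher in activated KO, and 10 were lower and 8 higher in forskolin KO, where 0.242%, 14.9% and 38.5% of all genes were called. The fit of the activated groups with the replicate block called 11 lower in place of 4, and without the block 8. Over all genes, 2142 of 11474 were lower in that fit with the block and 1390 without it, against 1083 of 11980 in the main fit. The salt-inducible kinase Sik1, which is itself a CREB target and keeps CRTC proteins in the cytoplasm, averaged 114 ± 4.26 CPM in forskolin WT and 12.5 ± 0.924 in KO (SD, n = 3). Its log2 fold change was -3.18 ± 0.07 there and -1.37 ± 0.13 in activated cells (edgeR adjusted p = 1.47e-25 and 2.51e-06). Sik3 had -0.98 ± 0.04 and -0.81 ± 0.09 (edgeR adjusted p = 2.21e-18 and 4.76e-06). Camk4, a calcium-dependent kinase that phosphorylates CREB, averaged 501 ± 22.6 CPM in forskolin WT and 221 ± 3.01 in KO, at -1.18 ± 0.04, and had -0.55 ± 0.08 in activated cells (edgeR adjusted p = 1.05e-21 and 6.72e-05). Prkaca had -3.91 ± 0.16, -5.49 ± 0.18 and -3.44 ± 0.13 in naive, activated and forskolin-treated cells (edgeR adjusted p = 1.64e-10, 6.05e-13 and 3.33e-19). The list medians were -0.05, -0.12 and -0.04.

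Of 15 other coactivators and acetyltransferases, none differed in naive cells (edgeR), 5 were lower and 1 higher in activated KO, and 5 of 14 were lower and 3 higher in forskolin KO, beside the same 0.242%, 14.9% and 38.5% of all genes. The nuclear receptor coactivator Ncoa2 had -0.60 ± 0.08 in activated cells and -0.42 ± 0.03 after forskolin (edgeR adjusted p = 4.1e-05 and 1.03e-11). Its relative Ncoa3 had -0.29 ± 0.07 in activated cells and 0.68 ± 0.04 after forskolin, where it averaged 243 ± 10.4 CPM in WT and 390 ± 9.79 in KO (edgeR adjusted p = 0.00975 and 4.64e-16). The acetyltransferases Kat2a (GCN5) and Kat2b (PCAF) had 0.88 ± 0.06 and 0.86 ± 0.05 after forskolin (edgeR adjusted p = 5.16e-14 and 5.15e-12). Cited2, which competes for a CBP and p300 domain, had -0.48 ± 0.08, and Ncoa1 0.40 ± 0.09 in activated cells (edgeR adjusted p = 0.000348 and 0.00644). The list medians were -0.05, -0.15 and 0.02. The number lower in activated KO was 3 without any 1 activated library other than WT replicate 1.

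Of 26 tested CREB target genes other than the members, 3 were lower in naive KO, 17 lower and 2 higher in activated KO, and 12 of 20 lower and 2 higher in forskolin KO, with 0.242%, 14.9% and 38.5% of all genes called. The list medians were -0.09, -1.10 and -0.96. The 2 higher in activated KO were Egr1 and Egr2 (0.23 and 0.48, edgeR adjusted p = 0.0493 and 0.0458), and without any 1 of the 6 activated libraries at most 1 of them was called. Sik1 stands in this list and among the kinases. After forskolin the phosphodiesterase Pde4d, which degrades cyclic AMP, averaged 633 ± 17.2 CPM in WT and 102 ± 2.91 in KO (SD, n = 3), at -2.63 ± 0.04 (edgeR adjusted p = 3.5e-30). Pde3b, another phosphodiesterase, had -2.45 ± 0.04, and Rgs2, an inhibitor of G-protein signalling, had -2.81 ± 0.08 (edgeR adjusted p = 4.9e-26 and 1.81e-22). In activated cells the phosphatase Dusp4 had -2.48 ± 0.07, the orphan nuclear receptor Nr4a3 -1.76 ± 0.08, the AP-1 factor Fosl2 -2.40 ± 0.13 and Pde3b -3.09 ± 0.14 (edgeR adjusted p = 2.09e-13, 2.37e-11, 1.23e-09 and 1.32e-09). In naive cells Pde3b had -1.64 ± 0.12, Fosl2 -1.13 ± 0.15 and Pde4d -0.96 ± 0.14 (edgeR adjusted p = 3.99e-06, 0.00179 and 0.00708). The naive call of Pde4d did not hold when WT replicate 3 or any KO library was left out (adjusted p from 0.0524 to 0.088). It was also lost in a fit of the naive groups alone (edgeR adjusted p = 0.0652).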

How the data were processed

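The authors deposited RNA counts per gene, whole numbers without scaling, in a table of naive and activated libraries and another of forskolin libraries. For ATAC they deposited counts per site for each library with a log2 fold that is not scaled to depth, a p-value and an FDR, on the same 110808 sites in both states. Its sign was turned from WT minus KO to KO minus WT. The genome build is mm10, per the submitters' processing notes. The aligner, counter and peak caller are not given in the sources used here.

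The 9 members and all gene lists were chosen with earlier results of these data known. RNA counts were tested with edgeR 4.0.16 (R 4.3.3, filterByExpr, TMM, robust quasi-likelihood fit, Benjamini-Hochberg adjustment at 0.05 over all genes). The 12 naive and activated libraries shared a fit of 11980 genes, the 6 forskolin libraries had a fit of 11658, and differences between the genotype effects of the 2 tables came from a joint fit of 18 libraries and 12607 genes. A total of 1314 features without a symbol (0.128% to 0.159% of counts) were left out. All ATAC sites were fitted without a filter. SE is the log2 fold change divided by the root of its F statistic. CPM values use TMM library sizes and are given with SD over 3 libraries. Named genes were all 9 members, Prkaca, the 5 genes most like Crem with at least 5 CPM in the highest group mean, up to 4 called genes with the smallest p in each list and genotype comparison, and, for ATAC, the start sites and the called sites with the smallest p. The likeness to Crem left out unnamed gene models (Gm and Rik names). Other sites and Egr1, Egr2, Ighm, Cd79a and Cd79b were chosen after their values were seen, as were the start sites of other members. The scripts were tested on simulated data.

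Same-numbered libraries of the 2 genotypes deviated together in activated cells (correlation 0.557, 0.280 and 0.236 for RNA, 0.338, 0.102 and 0.149 for ATAC). The labels do not say what a number marks. The main tests used no pairing, and the number entered only as a block in alternative fits. In naive and forskolin-treated cells at least 1 pair had a correlation below 0.1. The chi-square per degree of freedom between 2 libraries of a group was 1.15 to 19.1, where sampling noise alone gives 1. Replicates 2 and 3 of activated ATAC came close to that, at 1.15 in WT and 1.15 in KO. Pairs with replicate 1 gave 2.94 and 3.22 in WT and 1.56 and 1.66 in KO. For activated WT RNA the values were 1.68 for replicates 2 and 3, and 9.81 and 10.8 with replicate 1. Whether such pairs are technical was not tested.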

Additional observations from a re-analysis of the deposited data

Results flagged for a closer look

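In 7 cases the genotype difference of a gene itself differed between conditions by edgeR's test of that difference. The joint fit gave log2 values (forskolin difference minus naive difference) of -3.12 ± 0.24 for Crem, 0.41 ± 0.08 for Creb1 and 0.40 ± 0.09 for Crtc3 (edgeR adjusted p = 1.2e-08, 0.000717 and 0.00404). Against the activated difference the values were -1.32 ± 0.21 for Crem, 0.35 ± 0.08 for Creb1 and 0.28 ± 0.10 for Crtc3 (edgeR adjusted p = 0.000128, 0.00248 and 0.0482). Both sets share the forskolin libraries. Between activated and naive cells the difference of Crem changed by -1.79 ± 0.25 (edgeR adjusted p = 0.000367). Under all alternatives run, Crem and Creb1 kept the direction and the call in these tests, whereas Crtc3 against activated cells was lost under most of them.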

How the results depend on the processing

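Of 2232 values for members and sites under alternative settings, 2140 kept their side of the threshold, 73 lost the call and 18 gained one. In 1 the direction reversed with a call in either fit. A change of direction without a call in either fit is counted among the 2140. Values at FDR 0.01 and for sites in the gene span only are those of the main fit, so their direction could not change. Those of the gene span could not change at all. With scaling to total counts the activation difference at the Crem site 8693 bases into the gene in KO was 0.55 (edgeR adjusted p = 0.0394), against -0.05 with TMM. Counts of members called moved by over 1.5 times as follows. In naive cells 1 became 0 at FDR 0.01, with limma-voom and in a fit of the naive groups alone (0 to 1 when a library was left out). In activated cells 2 became 1 at FDR 0.01 and with limma-voom (1 to 2 when a library was left out). After forskolin 5 became 3 at FDR 0.01 and with DESeq2 (3 to 6 when a library was left out). For the 17 ATAC sites, 2 naive calls became 0 by the authors' deposited FDR (0 to 2 when a library was left out) and 7 activated calls became 1. The test of the difference between states, with 0 calls, gave 2 under scaling to total counts, 1 with the replicate block, and 0 to 1 when a library was left out.

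Over all genes, the edgeR calls went from 29 to 14 at FDR 0.01 and to 59 with DESeq2 in naive cells, and from 1789 to 967 at FDR 0.01 and to 3906 with the replicate block in a fit of the activated groups. At FDR 0.01 the calls of the difference between states went from 443 to 217, and those of the forskolin difference from 1376 to 847 against naive and from 2283 to 1349 against activated cells. Over all sites, naive calls went from 1732 to 714 at FDR 0.01, 2808 with the replicate block and 19 by the authors' FDR, activated calls from 31548 to 20129 and, by the authors' FDR, 5713, and calls of the difference between states from 6203 to 2624. Upper-quartile scaling moved the 1083 genes lower and 706 higher in activated KO to 843 and 987, and those of the forskolin difference against the activated one from 734 and 1549 to 1180 and 1123. The calls of the difference between states over all sites went from 5662 lower and 541 higher to 5703 and 2126 with total counts. Leaving out 1 library also moved totals by over 1.5 times. Naive RNA calls were 11 with WT replicate 2 left out, 17 with KO replicate 1 and 12 with KO replicate 3 left out, activated RNA calls 1151 without KO replicate 3, and those of the difference between states 290 without activated KO replicate 2. Naive ATAC calls were 1000, 886 and 660 without WT replicate 1, WT replicate 2 and KO replicate 3, and those of the difference between states 3733, 3684 and 3772 without naive KO replicate 3, activated KO replicate 2 and activated KO replicate 3. The cause of these moves was not tested.

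In naive cells same-numbered libraries had correlations of 0.409, 0.00363 and 0.0402 for RNA and 0.183, 0.0703 and 0.0819 for ATAC. For forskolin RNA they were 0.161, 0.0776 and 0.217. Some of these lie above values of activated pairs, and whether the pairs are related was not tested. Beside the changes given here and above, the replicate block changed no call of a member or of a Crem or Creb1 site. Leaving out a library leaves 2 in its group. An order of levels between genes, per transcript length, was not run. The Crem site 21113 bases in held 0 to 3 counts per naive library, so that its naive genotype difference rests on few counts.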
